A study of Mus musculus with 22 samples.

Results

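The endogenous opioid system of the spinal cord was described through 7 genes, selected as the rows of the table whose gene symbol is Penk, Pdyn, Pnoc, Oprm1, Oprd1, Oprk1 or Oprl1. They are 7 of the 17306 genes in the table, and all 7 were among the 16765 genes tested. RNA sequencing was performed on lumbar spinal cord (L4 to L6) from 22 male C57BL6J wildtype mice, aged 12 to 14 weeks at collection, with 1 library per mouse. The methods describe the tissue as the dorsal cord on the injected side. All mice, Vehicle mice included, carried joint pain induced by monoiodoacetate (MIA, 1 mg), an inhibitor of glycolysis that damages the knee cartilage after injection, so that no library from an uninjured mouse was analysed here.

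SAFit2 is a selective inhibitor of FKBP51, a co-chaperone that tunes the sensitivity of the glucocorticoid receptor. It was given at 100 mg/kg in a vesicular phospholipid gel (VPG), which releases it slowly, and Vehicle mice received the gel alone. The 5 Early SAFit2 and 6 Early Vehicle mice were injected on days -3 and 4 around MIA, and the 5 Late SAFit2 and 6 Late Vehicle mice on days 20 and 27. Tissue was collected on day 30, soon after the last late injection and weeks after the last early one. The treatment text of the labels gives day 3 in place of day -3, and the sample titles of the Early SAFit2 mice name SAFit1 where their treatment label gives SAFit2. Day -3, as the study's methods have it, and the treatment label SAFit2 were used. The labels also name timing as the batch, and timing and batch cannot be told apart.

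Opioid peptides are cut from larger precursors. The product of Penk gives the enkephalins, which act mainly at the delta and mu receptors encoded by Oprd1 and Oprm1. Pdyn encodes prodynorphin, the source of the dynorphins, ligands of the kappa receptor encoded by Oprk1. Pnoc encodes the precursor of nociceptin, the ligand of the nociceptin receptor encoded by Oprl1. All 4 receptors couple to inhibitory G proteins, which close calcium channels and open potassium channels. In the dorsal horn, where signals from the joint enter the cord, peptides of this family are made by local interneurons, and mu and delta receptors also sit on the terminals of sensory neurons whose cell bodies, and most of whose RNA, lie outside the cord in the dorsal root ganglia.

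The precursors share a short coding unit, shown here because it encodes the part of the peptides that opioid receptors recognise. In the coding sequences of GENCODE M21 (GRCm38), the 15 bases for an enkephalin were found 7 times in Penk, as 6 copies of Met-enkephalin and 1 copy of Leu-enkephalin, and 3 times in Pdyn, each of them as Leu-enkephalin. The corresponding start of nociceptin, whose first codon stands for phenylalanine in place of tyrosine, was found 1 time in Pnoc. All 11 units are preceded by a pair of codons for basic residues, at which precursors are cut. The Met-enkephalin units of Penk from codons 187 and 262, and the Pnoc unit, are not directly followed by such a pair. One example of each kind, with the unit in capitals and the 2 flanking codons on each side in lower case, reads from 5′ to 3′ as follows.
Penk, Met-enkephalin, from codon 107: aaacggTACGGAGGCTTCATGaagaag
Penk, Leu-enkephalin, from codon 231: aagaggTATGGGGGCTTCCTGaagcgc
Pdyn, Leu-enkephalin, from codon 202: aaacgcTATGGGGGCTTCCTGcggcgc
Pnoc, start of nociceptin, from codon 141: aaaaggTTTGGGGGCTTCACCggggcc
The Leu-enkephalin units shown for Penk and Pdyn are spelled with the same 15 bases. In GRCm38 coordinates, Penk lies on the minus strand of chromosome 4 (start 4133531, end 4138819), Pdyn on the minus strand of chromosome 2 (start 129686565, end 129699844) and Pnoc on the minus strand of chromosome 14 (start 65400673, end 65425472). Oprm1 lies on the plus strand of chromosome 10 (start 6758506, end 7038198), Oprd1 on the minus strand of chromosome 4 (start 132110726, end 132144486), Oprk1 on the plus strand of chromosome 1 (start 5588466, end 5606131) and Oprl1 on the plus strand of chromosome 2 (start 181715016, end 181720985). Values are counts over each whole gene, and isoforms were not separated.

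The libraries held 11352989 to 24433349 reads on genes. Values are log2 CPM (read counts scaled to a common library size), on which a gene with 0 reads sits at -3.15. All 6 neuron markers were detected. Of 6 markers of sensory ganglia, 4 (Scn10a, Trpv1, Mrgprd and Scn11a) were not in the table, and the summed level of the other two was 5.61 to 32.2 CPM. Motor neuron markers, whose summed level ran from 11.4 to 289 CPM, differed widely between mice of every group. In bulk tissue, fewer cells of a type and less RNA per cell cannot be told apart.

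Levels were first compared between the 7 genes per kb of exon. Penk stood far above the rest, with a mean of 198 CPM per kb ± 39.2 (SD, n = 22 mice), a level above that of 99.1% of the genes tested with a length. Oprl1 came next at 17.2 ± 1.82, followed by Pnoc at 9.40 ± 2.31 and Pdyn at 4.76 ± 1.18. Of the receptors of the classical opioids, Oprk1 reached 1.17 ± 0.330, Oprd1 0.686 ± 0.339 and Oprm1 0.0871 ± 0.0610 CPM per kb. Penk thus stood 41.7-fold above Pdyn, and Oprm1, the receptor for most opioid analgesics, was the lowest of the 7. This order held between neighbours in all 22 mice, except for Oprk1 over Oprd1 (18 mice) and Oprd1 over Oprm1 (21 mice), and the order of the means was the same with the length of the longest transcript. Per mouse, that length gave Pnoc over Pdyn in 21 mice, Oprk1 over Oprd1 in 22 and Oprd1 over Oprm1 in 20, and the exons of Oprm1 are 8037 bases in union and 2420 bases in the longest transcript, so that its level per kb depends on the choice.

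**Figure D1:**
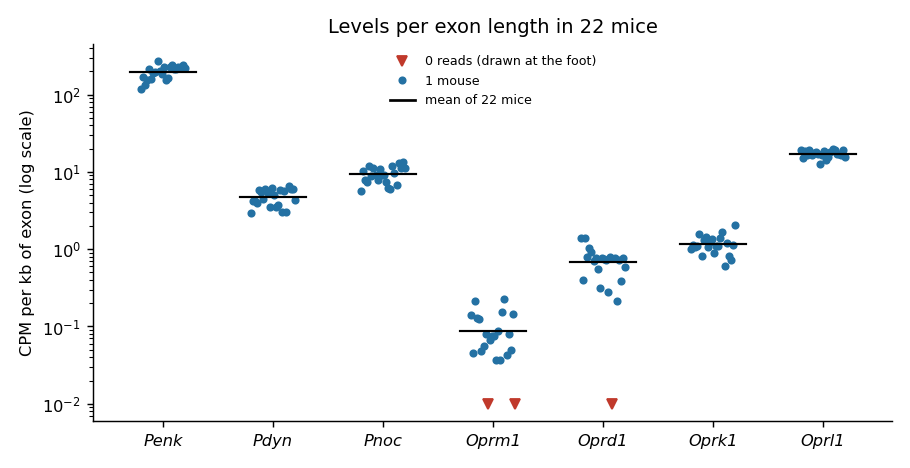
Level of each gene per kb of exon (CPM per kb, log scale) in 22 mice. Points are mice, black lines are means, and red triangles at the foot are the 3 values at 0 reads (2 for Oprm1 and 1 for Oprd1), and the means run from 0.0871 for Oprm1 to 198 for Penk.

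The depth behind these values differs accordingly. Penk had 2946 to 8546 reads per library and Oprl1 664 to 1824, whereas Pdyn had 78 to 478, Pnoc 129 to 533 and Oprk1 127 to 352. Oprd1 had a median of 52 reads, with 0 in Late SAFit2 replicate 5, and Oprm1 a median of 11 reads, with 0 in Early Vehicle replicate 4 and Late Vehicle replicate 6. A count of 0 allows up to 3 reads, which is 0.337 CPM for Oprd1 in that library and 0.225 and 0.240 CPM for Oprm1 in the other two, counting error only. For Oprd1 a value of 0 is uncommon in its library, where 13 of the 13487 genes with a median log2 CPM of at least 1 were at 0.

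The first comparison asked whether SAFit2 given around the onset of joint pain was associated with a different level of these genes on day 30. Penk was lower in Early SAFit2 mice. Its log2 CPM was 7.61, 7.75, 8.0, 8.13 and 8.45 in the 5 Early SAFit2 mice and 8.0, 8.23, 8.28, 8.32, 8.37 and 8.79 in the 6 Early Vehicle mice. The ranges overlapped, as they did for all 7 members (0.352% of genes tested did not overlap), with 4 of 5 Early SAFit2 mice below the Early Vehicle mean. The difference was -0.35 on the log2 scale (SE 0.14, 95% interval -0.64 to -0.05), or 0.787-fold, with limma p = 0.0236 before adjustment and an adjusted p of 0.99987, and p = 0.0866 by two-sided exact permutation over 462 splits. At p under 0.05 before adjustment, Penk was the 1 member of 7, against 2.48% of all genes tested (1.54% lower and 0.942% higher), and no gene of the table passed adjustment (0% called). Leaving out Early SAFit2 replicate 1, Early SAFit2 replicate 3 or Early Vehicle replicate 4 took Penk over that level, to 0.0996, 0.0722 and 0.0795 before adjustment, with differences of -0.25, -0.29 and -0.25.

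Pdyn and Pnoc were lower too, by amounts within the spread between mice. Pdyn was 3.11 to 4.07 in Early SAFit2 mice (median 3.6) and 3.35 to 4.18 in Early Vehicle mice (median 3.98), a difference of -0.31 (95% interval -0.74 to 0.13, two-sided exact permutation p = 0.152). Pnoc was 3.61 to 4.70 in Early SAFit2 mice (median 4.09) and 4.09 to 4.59 in Early Vehicle mice (median 4.32), a difference of -0.18 (95% interval -0.59 to 0.23, two-sided exact permutation p = 0.385). The lowest value of all 3 peptide genes came from the same animal, Early SAFit2 replicate 1, and the highest of the group from Early SAFit2 replicate 5. Without replicate 1 the early difference was -0.038 for Pnoc and -0.19 for Pdyn, and without replicate 5 it was -0.31 for Pnoc.

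**Figure D2:**
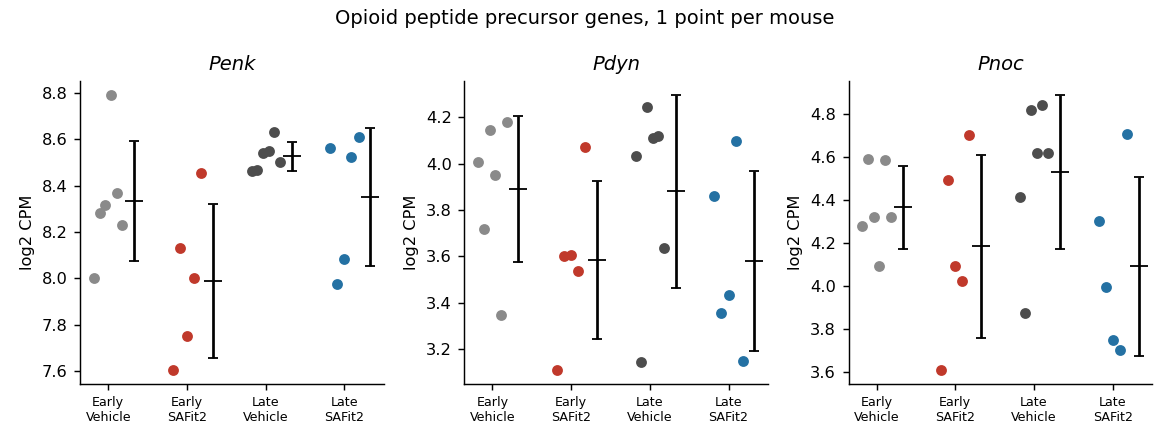
Log2 CPM of Penk, Pdyn and Pnoc in each mouse, with the mean ± SD of each group beside its points. The SAFit2 mean lies below the Vehicle mean for the 3 genes at both timings, with overlapping ranges, and Late Vehicle mice are tightly grouped for Penk (8.47 to 8.63).

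Of the receptor genes, Oprm1 had the largest early difference, at low depth. Oprm1 log2 CPM was -1.08, 0.16, 0.22, 0.30 and 0.87 in Early SAFit2 mice and -3.15 (0 reads), -0.99, -0.83, -0.61, -0.48 and -0.42 in Early Vehicle mice, so that 4 of 5 Early SAFit2 mice lay above every Early Vehicle mouse. These values rest on 7 to 34 reads in Early SAFit2 mice and 0 to 17 in Early Vehicle mice. The difference was 1.17 (SE 0.60, 95% interval -0.05 to 2.40, limma p = 0.0594 before adjustment and 0.99987 after, and p = 0.0390 by two-sided exact permutation), and 0.76 (0.185 before adjustment) without the Early Vehicle mouse at 0 reads. Oprd1 differed by 0.49 (95% interval -0.75 to 1.73), Oprk1 by -0.03 (-0.52 to 0.46) and Oprl1 by 0.11 (-0.12 to 0.33), none with p under 0.05 before adjustment. For Oprl1 the interval spans folds of 0.923 to 1.26, and for Oprd1 folds of 0.595 to 3.32.

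The second comparison concerned mice treated once pain was established. Pnoc was lower in Late SAFit2 mice. Its log2 CPM was 3.70, 3.75, 3.99, 4.30 and 4.70 in Late SAFit2 mice and 3.87, 4.41, 4.61, 4.62, 4.82 and 4.84 in Late Vehicle mice. The groups overlapped, as they did for all 7 members (1.71% of genes tested did not overlap), and 4 of 5 Late SAFit2 mice were below the Late Vehicle mean. The difference was -0.44 (SE 0.20, 95% interval -0.85 to -0.03), or 0.738-fold, with limma p = 0.0368 before adjustment and 0.120 after, and p = 0.0952 by two-sided exact permutation. Pnoc was 1 of 7 members under 0.05 before adjustment, where 34.5% of all genes tested were (19.0% lower and 15.6% higher), and none of the 7 was among the 12.1% of genes called at an adjusted p under 0.05 and a fold of 1.2.

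Penk log2 CPM was 7.98, 8.08, 8.53, 8.56 and 8.61 in Late SAFit2 mice and 8.47 to 8.63 in Late Vehicle mice (median 8.52). Of these, 2 Late SAFit2 mice lay below every Late Vehicle mouse and 3 within their range. The difference was -0.18 (95% interval -0.47 to 0.12, two-sided exact permutation p = 0.271). Pdyn was 3.15 to 4.10 in Late SAFit2 mice (median 3.43) and 3.15 to 4.24 in Late Vehicle mice (median 4.07), a difference of -0.30 (95% interval -0.74 to 0.13, two-sided exact permutation p = 0.236), close to the early value of -0.31. Without Late SAFit2 replicate 5 the Pdyn difference was -0.19, and without Late SAFit2 replicate 2 or 3 that of Penk was -0.081 or -0.11. Oprk1 differed by 0.26 (-0.22 to 0.75), Oprm1 by 0.14 (-1.08 to 1.37) and Oprl1 by -0.04 (-0.26 to 0.19). Oprd1 differed by -0.74 (-1.98 to 0.50), a value set by the mouse with 0 reads, since without it the difference was 0.16.

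**Figure D3:**
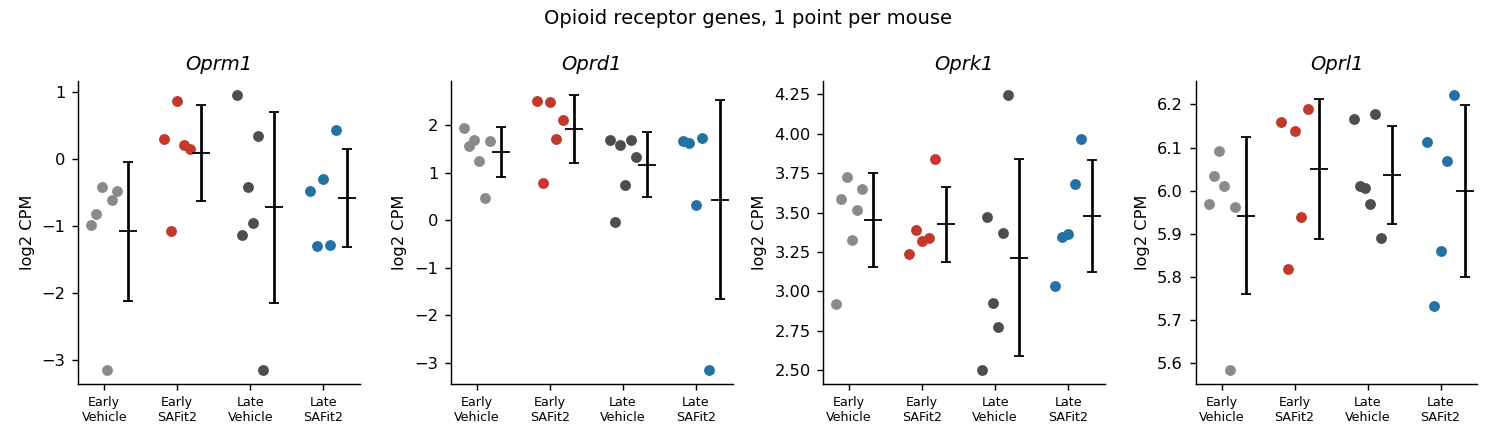
Log2 CPM of Oprm1, Oprd1, Oprk1 and Oprl1 in each mouse, with the mean ± SD of each group beside its points. The points at -3.15 are libraries with 0 reads, each panel has its own axis, and the SAFit2 and Vehicle ranges overlap in every panel.

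Averaged over both timings, the 3 peptide genes were lower in SAFit2 mice by similar amounts. The mean difference was -0.26 for Penk (SE 0.10, 95% interval -0.47 to -0.05, limma p = 0.0164 before adjustment and 0.345 after, and p = 0.0246 by exact permutation within timing over 213444 splits). For Pnoc it was -0.31 (SE 0.14, -0.60 to -0.02, limma p = 0.0370 before adjustment and 0.357 after, and p = 0.0540 by exact permutation). For Pdyn it was -0.30 (SE 0.15, -0.61 to 0.00, limma p = 0.0524 before adjustment and 0.379 after, and p = 0.0629 by exact permutation). In folds these are 0.835, 0.806 and 0.810. With Penk and Pnoc, 2 of 7 members were under 0.05 before adjustment, where 13.2% of all genes tested were (7.18% lower and 6.03% higher), and no gene was called after adjustment (0%). The mean difference of the receptor genes was 0.66 for Oprm1 (-0.21 to 1.52), -0.12 for Oprd1 (-1.0 to 0.75), 0.12 for Oprk1 (-0.23 to 0.46) and 0.04 for Oprl1 (-0.12 to 0.19), all with p over 0.05 before adjustment.

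The early and the late effect did not differ at p under 0.05 before adjustment for any of the 7 genes, where 24.9% of all genes tested did (14.0% higher, 10.9% lower) and 0% were called. The early minus the late effect was -0.17 for Penk (95% interval -0.59 to 0.25, exact permutation p = 0.493), -0.00 for Pdyn (-0.62 to 0.61), 0.26 for Pnoc (-0.32 to 0.84), 1.03 for Oprm1 (-0.70 to 2.76), 1.23 for Oprd1 (-0.53 to 2.98), -0.29 for Oprk1 (-0.98 to 0.40) and 0.14 for Oprl1 (-0.17 to 0.46). For Penk, under 0.05 before adjustment in the early and not in the late comparison, a difference between timings is therefore not shown.

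**Figure D4:**
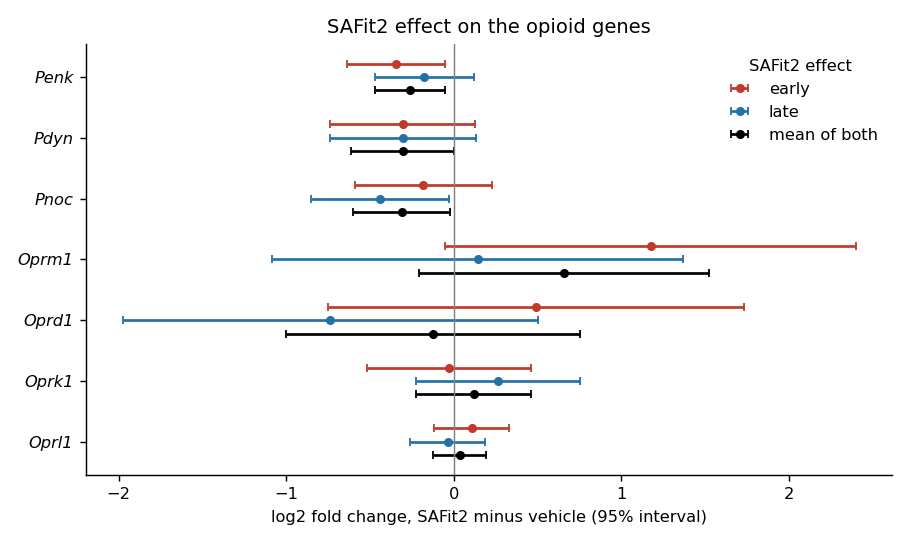
Log2 fold change (SAFit2 minus Vehicle) of each gene in early mice, in late mice and averaged over both, with 95% intervals from limma. The early and late values of the 3 peptide genes lie below 0, from -0.18 to -0.44, and so must their averages. The intervals of Oprm1 and Oprd1 are the widest.

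Several library properties moved together with the late comparison. The slope of a library's log2 CPM on the GC content of genes, per 10 percentage points, was -0.47 to -0.05 in Late SAFit2 mice (median -0.33) and -0.32 to 0.49 in Late Vehicle mice (median 0.30), against medians of 0.07 in Early SAFit2 and 0.01 in Early Vehicle mice. The longest transcripts of the 3 peptide genes have 51.8% to 52.7% GC, and that of Oprk1 has 40.7%. With each library's trend on GC content and transcript length removed, the late difference was -0.30 for Pnoc, -0.14 for Pdyn and -0.01 for Penk, each over 0.05 before adjustment, and the early difference of Penk was -0.29 (0.0482 before adjustment). The mean difference of Penk became -0.15, that of Pnoc -0.23 and that of Pdyn -0.21, each over 0.05 before adjustment. A difference due to SAFit2 that happens to track GC content would be lost as well. Within groups, across the 22 mice, the GC slope was related to Oprk1 with r = -0.71 (permutation p = 0.00281, adjusted over 7 relations 0.0197) and rho = -0.62 (permutation p = 0.00839, adjusted 0.0587), and r was -0.55 without the 2 mice farthest from the median. For Pdyn r was 0.56 (permutation p = 0.0146, adjusted 0.0511) and rho 0.52 (permutation p = 0.0223, adjusted 0.0780), with r = 0.45 without these 2 mice. For Penk r was -0.04 (permutation p = 0.825, adjusted 0.825) and rho -0.03 (permutation p = 0.876, adjusted 0.876), with r = -0.10 without them.

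**Figure D5:**
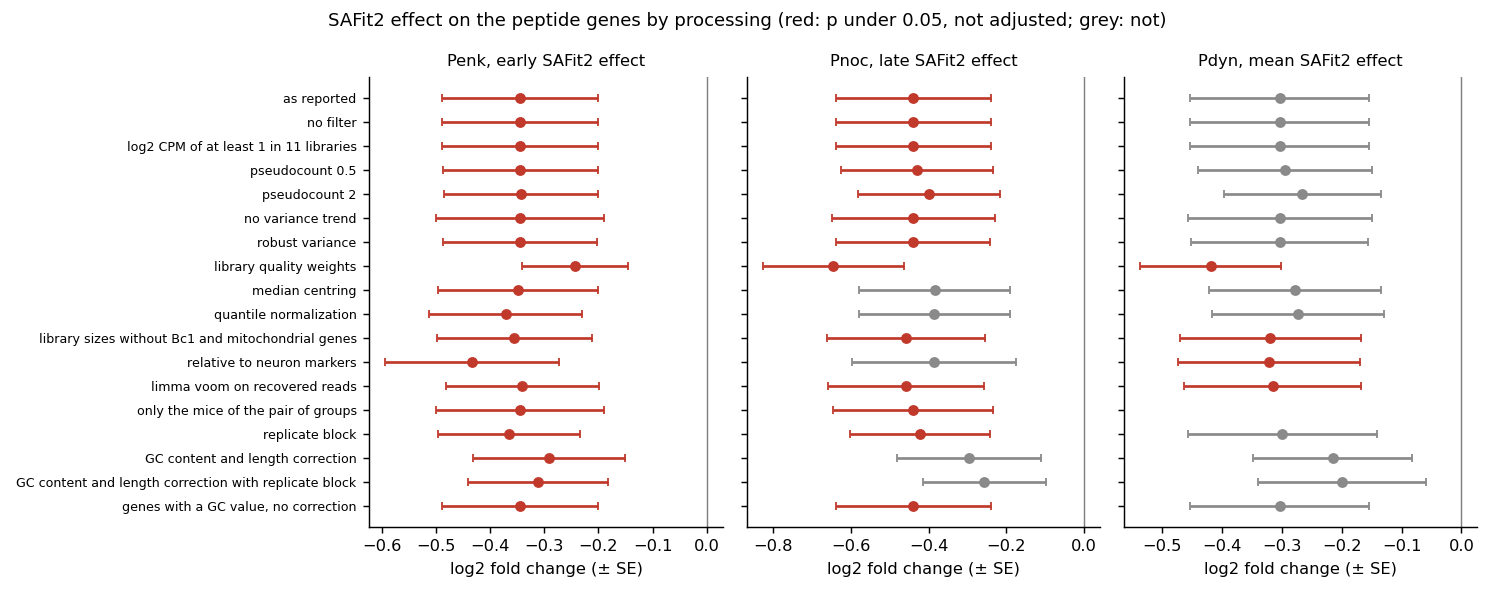
Log2 fold change ± SE of Penk in early mice, Pnoc in late mice and Pdyn as the mean of both timings under each way of processing, red where the p before adjustment is under 0.05 and grey where it is not. The difference stayed below 0 in each row drawn, and for Pnoc it was -0.44 as reported and -0.30 after GC content and length correction.

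When libraries were weighted by their estimated quality (weights of 0.253 to 4.43), the 3 peptide genes passed adjustment as a mean of both timings. Pdyn and Pnoc also passed in late mice. The mean difference was then -0.27 for Penk (adjusted p = 0.0205), -0.42 for Pdyn (adjusted p = 0.0142) and -0.45 for Pnoc (adjusted p = 0.00943), and in late mice it was -0.49 for Pdyn (adjusted p = 0.0392) and -0.64 for Pnoc (adjusted p = 0.00662). The same weights raised late calls over the whole table from 2021 to 6381 genes and mean calls from 0 to 2844. The GC content and length correction lowered the late count to 0. In early mice the lowest adjusted p of a peptide gene under any limma setting was 0.465, for Penk. Late Vehicle replicates 6 and 2 had weights of 0.253 and 0.419 and GC slopes of -0.32 and -0.16. The other Late Vehicle mice had weights of 1.60 to 1.95 and GC slopes of 0.26 to 0.49. How far the weighted differences follow the GC slope was not tested.

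Levels were also compared between timings within a treatment. None of the 7 genes differed between Late and Early Vehicle mice at p under 0.05 before adjustment, where 24.3% of all genes tested did (11.2% higher and 13.0% lower, 9.11% called, and 4.92% without overlap). With library weights Oprk1 was lower (limma adjusted p = 0.0044) and Penk higher (limma adjusted p = 0.0413) in Late than in Early Vehicle mice. Those weights called 5067 genes in this comparison. Between Late and Early SAFit2 mice, Penk was higher by 0.36 (95% interval 0.06 to 0.67, limma p = 0.0226 before adjustment and 0.0836 after, exact permutation p = 0.111) and Oprd1 lower by -1.49 (-2.78 to -0.19, limma p = 0.0261 before adjustment and 0.0923 after, exact permutation p = 0.151), 2 of 7 members where 35.6% of genes were under 0.05 (15.5% higher and 20.1% lower), 20.5% were called and 14.5% did not overlap. Without the Late SAFit2 mouse at 0 reads the Oprd1 difference was -0.59, over 0.05 before adjustment. The order of group means for Penk, from high to low, was Late Vehicle (8.53 ± 0.06), Late SAFit2 (8.35 ± 0.30), Early Vehicle (8.33 ± 0.26) and Early SAFit2 (7.99 ± 0.33 log2 CPM, SD), and the ranges of neighbouring groups overlapped. Early Vehicle and Early SAFit2 means differed by more than 1 SD of either group, and the other neighbours by less than the larger SD of the pair.

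Ratios within a mouse set each peptide against another peptide or its receptor. Penk relative to Pdyn was 4.40 ± 0.16 on the log2 scale in Early SAFit2 mice and 4.44 ± 0.43 in Early Vehicle mice (SD, n = 5 and 6, difference -0.04, two-sided exact permutation p = 0.833). With this spread the ratio cannot tell whether both genes changed by the same amount. Penk relative to Pnoc differed by -0.16 in early mice (p = 0.470) and 0.26 in late mice (p = 0.236, two-sided exact permutation). Pnoc relative to its receptor gene Oprl1 was lower with SAFit2 by 0.29 in early and 0.40 in late mice, with a mean difference of -0.35 (exact permutation p = 0.0417, and 0.417 adjusted over the 30 ratio tests). Pdyn relative to Oprk1 differed by -0.28 in early and -0.57 in late mice (mean -0.42, exact permutation p = 0.118). Between Late and Early SAFit2 mice, Penk was higher relative to Pdyn by 0.37 (exact permutation p = 0.0317) and relative to Pnoc by 0.46 (exact permutation p = 0.0397), both 0.417 after adjustment. No ratio passed adjustment.

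Across the 22 mice with group means removed, 21 pairs of members were compared. The 3 pairs with the largest r or rho were Pdyn and Oprd1 (r = 0.52, permutation p = 0.0137, adjusted 0.288, rho = 0.47, permutation p = 0.0452, adjusted 0.317), Penk and Pnoc (r = 0.48, permutation p = 0.0446, adjusted 0.401, rho = 0.52, permutation p = 0.0283, adjusted 0.297) and Oprm1 and Oprl1 (r = 0.41, permutation p = 0.0573, adjusted 0.401, rho = 0.50, permutation p = 0.0267, adjusted 0.297). Without the 2 mice farthest from the median of the first gene, r was 0.42, 0.57 and 0.52. No pair passed adjustment. Among the 16765 genes tested, those most like Penk over these mice were Grp, a neuropeptide of dorsal horn neurons (r = 0.86), Crabp1 (0.85) and Ngb (0.84). For Pdyn they were Pomt1 (0.90), Smpd3 (0.90) and Cdh3 (0.90), for Pnoc Opn1mw, Mab21l2 and Rspo1 (0.82 to 0.87), for Oprm1 Pcdhb11 (0.79) and Gdf10 (0.78), for Oprd1 Eif4ebp2, Mrs2 and 2700099C18Rik (0.86 to 0.88), for Oprk1 Slc1a3, Pum2 and Suco (0.86 to 0.89) and for Oprl1 Gabrq, Pus7l and Hoxaas3 (0.78 to 0.87). These are the highest values of a search over all genes tested and describe shared variation between libraries, depth and composition included. By rank, rho was lower for the genes of Oprd1 (0.66 to 0.73) and for Pcdhb11 (0.53) and Gdf10 (0.62) with Oprm1, the members with values at 0 reads. Opn1mw, Hoxaas3 and 2700099C18Rik had low mean log2 CPM of -1.50, -0.57 and -0.39.

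Other neuropeptides of the dorsal horn gave no call in early mice. Of 14 such genes, 13 had a difference below 0 with a median of -0.34, beside a median of 0.01 over all genes tested, and 4 were under 0.05 before adjustment, where 2.48% of all genes tested were (1.54% lower): Tac1, the precursor of substance P (-0.50), Grp (-0.63), Cartpt (-0.88) and Nmu (-0.55), all with an adjusted p of 0.99987. Cartpt and Nmu, and Trh, the 1 gene above 0 (0.33), were named after their values were seen. The summed level of the 14 genes was 256 to 494 CPM in Early SAFit2 mice and 409 to 519 in Early Vehicle mice. In late mice Nts, the neurotensin precursor, was called higher (0.68, adjusted p = 0.0324) and Sst, the somatostatin precursor, was called lower (-0.71, adjusted 0.0384). That is 1 of the 14 genes in each direction, where 12.1% of all genes tested were called. The late median was -0.17 beside -0.05 over all genes tested. Cck, the precursor of a peptide that opposes opioid analgesia, was -0.55 (adjusted 0.0889).

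Genes for the processing and breakdown of the peptides showed no call in early mice. Under 0.05 before adjustment were 0 of 6 and 0 of 5, beside 2.48% of all genes tested. In late mice Pcsk1n, whose product proSAAS restrains the convertase that cuts the precursors, was called lower (-1.30, SE 0.34, adjusted p = 0.0324). It was the 1 call among 6 genes, where 12.1% of all genes tested were called. The enkephalin-degrading enzymes gave no call. With library weights Mme was called higher and Ace, Ece2 and Dpp3, the last named after its values were seen, were called lower. Those weights called 6381 of all 16765 genes tested in late mice. Mme, which encodes neprilysin, was 0.65 (adjusted 0.121), and Ace and Ece2 were -0.64 (adjusted 0.0511) and -0.31 (adjusted 0.0600). Of the other opioid genes Pomc, Ogfr and Ackr3, none was called, and Ogfr, the opioid growth factor receptor, was -0.56 (adjusted 0.0539) in late mice.

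Genes of signalling below the receptors were called in both directions in late mice, where 12.1% of all genes tested were called and 34.5% were under 0.05 before adjustment. Of 5 inhibitory G protein alpha subunits, Gnai3 (0.44, adjusted p = 0.0363) and Gnai1 (0.40, adjusted 0.0377) were called higher, while Gnai2 was -0.36 (adjusted 0.0575) and Gnaz -0.52 (adjusted 0.0576). Of 9 genes of receptor desensitisation and signal termination, the receptor kinase genes Grk6 (-0.60, adjusted 0.0324) and Grk2 (-0.50, adjusted 0.0455) were called lower, and Rgs4 was 0.42 (adjusted 0.0522). Of 8 effectors none was called, with Cacna1b, an N-type calcium channel subunit, at -0.77 and Adcy5, an adenylyl cyclase, at -0.45 (adjusted 0.0997 and 0.116). In early mice none of these 22 genes was under 0.05 before adjustment. Over the 7 pathway and neuropeptide lists outside the members, 7 of 50 genes were called in late mice (3 higher and 4 lower), a share near the 12.1% over all genes. After the GC content and length correction 0 of 50 were called, with 9 under 0.05 before adjustment. With library weights 23 of 50 were called (5 higher and 18 lower), where those weights called 6381 of all 16765 genes tested. Late calls over all genes also fell from 2021 to between 1 and 8 when any of Late SAFit2 replicates 2, 4 and 5 or Late Vehicle replicates 1, 3, 4 and 5 was left out. Of the 30 genes with at least 50% GC, 28 had a late difference below 0, against 7 of the 20 genes under 50% GC.

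Markers of the cells in the tissue were compared in the same way. In early mice 0 of 6 neuron markers, 0 of 5 inhibitory and 0 of 5 excitatory dorsal horn neuron markers were under 0.05 before adjustment (medians 0.10, 0.04 and 0.03), where 2.48% of all genes tested were. Lower at that level were 2 of 5 ependymal markers (median -0.62, summed level 21.4 to 31.1 CPM in Early SAFit2 and 26.9 to 47.2 in Early Vehicle mice) and 1 of 5 astrocyte markers (median -0.13). In late mice 2 of 5 ependymal markers were called lower (median -0.77, 18.7 to 43.6 against 32.5 to 65.6 CPM), where 12.1% of all genes tested were called in either direction. Also called lower were 1 of 5 inhibitory and 1 of 5 excitatory dorsal horn neuron markers, a share near that over all genes. The inhibitory list had 3 differences below 0 and 2 above, with a median of -0.55. Its summed level was 502 to 666 CPM in Late SAFit2 against 629 to 753 in Late Vehicle mice. The excitatory list was mixed, with 2 markers higher and 2 lower before adjustment, a median of -0.26 and a summed level of 401 to 557 CPM in Late SAFit2 (median 436) against 307 to 476 in Late Vehicle mice (median 352). Skeletal muscle markers had a late median difference of 1.88. Their summed level was 1.60 to 109 CPM in Late SAFit2 (median 2.44) and 1.2 to 2.26 CPM in Late Vehicle mice (median 1.90). The part of these differences in the values of the opioid genes was not tested.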

How the data were processed

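RNA sequencing of 22 mice in 4 groups was analysed, with groups taken from the treatment labels. According to the methods and the submitters' processing notes, reads were trimmed with Trimmomatic, aligned to mm10 with HISAT2, counted with featureCounts from a strand-specific kit and scaled by trimmed mean of M-values, and edgeR is named. The deposited values are log2 CPM, which the authors computed with a small prior count. Reads were worked back from the floor of -3.15 and the lowest steps, and were whole in 100% of values (tolerance 0.02 reads). Of 17306 genes, 384 have no symbol.

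The 16765 genes that reached -1 (log2 CPM) in 5 libraries entered a limma fit (version 3.58.1, R 4.3.3) of the deposited log2 values, with 1 mean per group over all 22 mice and a variance trend. Adjusted p are Benjamini-Hochberg over all genes tested, and a call needs an adjusted p under 0.05 and a 1.2-fold change. Where a p is given as before adjustment it is limma's for that gene. Single values and ratios were compared by two-sided exact permutation (462 splits for 5 against 6 mice, smallest p 0.00216), and correlations with 100000 permutations within groups. Replicates are separate mice. The code of the fit was tested on simulated counts with the same spread for every gene and no GC trend or batch. That test therefore says nothing about the calls in these data.

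GC content and length came from GENCODE M21 (GRCm38) for 96.5% of genes and were corrected by loess (span 0.5) per library for 16208 genes. Python 3.11.15, numpy 2.4.6, pandas 2.3.3, scipy 1.17.1 and matplotlib 3.10.9 were used. The members and lists were chosen with earlier results of these data known. Named genes are the 7 members, the 2 lowest p per pathway list, comparison and direction among those under 0.05 before adjustment, and the 3 genes of highest correlation with each member, of which 1 is not reported here. For markers, counts are given. Alternatives were other filters, pseudocounts (0.5 and 2), variance models, library weights, centring, quantile normalization, library sizes without Bc1 and mitochondrial genes, neuron markers as reference, voom, only the mice of a pair of groups, an additive model, the replicate block, GC correction and leaving out each mouse. The GC slope relations, and an uncorrected fit of the genes that have a GC value, were added after seeing the data.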

Additional observations from a re-analysis of the deposited data

Results flagged for a closer look

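In 4 of 28 groups of members and mice, 1 mouse stood apart from the others of its group by Dixon's criterion at 95%. Chance marks about 1 in 20 groups. Oprm1 in Early Vehicle replicate 4 was at -3.15 log2 CPM with 0 reads, and the nearest mouse was at -0.99. Oprd1 in Late SAFit2 replicate 5 was at -3.15 with 0 reads, and the nearest mouse was at 0.32. Oprk1 in Early SAFit2 replicate 5 was at 3.84, with the nearest mouse at 3.39. Oprl1 in Early Vehicle replicate 5 was at 5.58, with the nearest at 5.96. Both zeros carry weight in a log2 difference, since without them the early difference of Oprm1 was 0.76 in place of 1.17 and the late difference of Oprd1 was 0.16 in place of -0.74.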

How the results depend on the processing

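The peptide genes stayed below 0 in the early, late and mean comparisons under every alternative run, with Penk in early mice between -0.46 and -0.24 and Pnoc in late mice between -0.64 and -0.26. Penk in late mice ran from -0.29 to -0.00029, the last being in practice no difference, and Pnoc in early mice from -0.31 to -0.038. Several receptor values changed sign, for reasons not tested apart from leaving out single mice. Oprd1 in late mice, at -0.74, changed sign only without Late SAFit2 replicate 5, the mouse with 0 reads (0.16). Depth limits Oprm1 and Oprd1, where few reads carry a difference. Calls over all genes in late mice were 2021 and became 62 without a variance trend, 1231 with quantile normalization, 876 with voom, 6381 with library weights, 0 with only the late mice or GC correction, and 12 with GC correction and the block. Leaving out each mouse gave 1 to 4971 late calls, of which 4971 without Late Vehicle replicate 6, 0 to 2513 for early minus late (2513 without Late Vehicle replicate 6 and 0 otherwise), 944 to 2482 between Vehicle groups, 2201 to 3957 between SAFit2 groups and 0 to 2 for the mean. Library weights also gave 13 early calls where 0 were called, 2844 for the mean where 0 were, 5082 for early minus late where 0 were, 5067 between Vehicle groups against 1527 and 5162 between SAFit2 groups against 3437, GC correction gave 2969 between Vehicle groups, and the block 1785 for early minus late. Counts of members under 0.05 before adjustment moved as follows.

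In early mice the count was 1 and became 2 with pseudocounts of 0.5 and 2, quantile normalization or only the mice of the pair, and 3 with library weights. Apart from leaving out mice, early Oprm1 was under 0.05 in 7 of 16 alternatives and early Pdyn in 1 of 17. For Oprm1 the lowest limma p was 0.0138 before adjustment and 0.480 after. In late mice the count was 1 and became 4 with library weights. It became 0 with median centring, quantile normalization, neuron markers as reference, GC correction, and GC correction with the block. For the mean it was 2 and became 0 with GC correction, with or without the block. For early minus late it was 0 and became 2 with library weights. Between Vehicle groups it was 0 and became 2 with library weights (Penk and Oprk1). Between SAFit2 groups it was 2 and became 1 with library weights, without Bc1 and mitochondrial genes, with neuron markers or with GC correction, and 0 with quantile normalization. Leaving out each mouse gave 0 to 2 in early, 0 to 2 in late and 1 to 3 for the mean, 0 to 1 for early minus late, 0 to 1 between Vehicle and 0 to 2 between SAFit2 groups. Pnoc in late mice went over 0.05 without any of Late SAFit2 replicates 2, 3 and 4 or Late Vehicle replicates 3, 4, 5 and 6, and reached an adjusted p = 0.0367 in limma without Late Vehicle replicate 2. The mean of Pnoc went over 0.05 in 11 of the 22 fits that left out a mouse, and that of Penk in 0.

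Deviations of same-numbered mice correlated by -0.24 to 0.32 over 10 pairs, 2 of them above 0.1. So few pairs cannot decide whether replicate numbers pair the mice. The study's methods describe block randomisation with the treatment groups represented in each cage, and cage was not modelled here. With the replicate block Penk was -0.37 in early and Pnoc -0.42 in late mice, the count was 2 in early mice, 2 in late mice and 1 for early minus late (Oprm1), and late calls over all genes rose from 2021 to 4219. Signs changed for Oprk1 early (0.011, and 0.034 with GC correction), Oprm1 late (-0.34, and -0.39 with GC correction) and Pdyn early minus late (0.10). With GC correction and the block the count was 2 in early mice and 1 for early minus late, Oprl1 late was 0.054 and the Oprd1 mean 0.097.

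Other reversals were as follows. With pseudocounts of 0.5 and 2, Oprm1 late was -0.014 and -0.033 and the Oprd1 mean 0.033 and 0.086. With library weights, Oprm1 late was -0.46, the Oprl1 mean -0.061, Penk and Pdyn early minus late 0.044 and 0.14, Pdyn between Vehicle groups 0.088 and Oprk1 between SAFit2 groups -0.023. With median centring, Oprl1 late was 0.017, Pdyn between Vehicle groups 0.056, and Pdyn, Pnoc and Oprl1 between SAFit2 groups 0.12, 0.032 and 0.074. With quantile normalization, the Oprd1 mean was 0.039, Penk and Pdyn between Vehicle groups -0.0031 and 0.067, and Pdyn and Pnoc between SAFit2 groups 0.15 and 0.0091. With neuron markers, Oprl1 late was 0.015, and Pnoc and Oprl1 between Vehicle groups -0.013 and -0.084. Without Bc1 and mitochondrial genes, Pdyn early minus late was 0.0057, Oprl1 between Vehicle groups -0.020 and Oprk1 between SAFit2 groups -0.070, and with voom the last was -0.0076. With GC correction, Oprk1 and Oprl1 late were -0.056 and 0.072, the Oprd1 and Oprk1 means 0.030 and -0.031, Oprk1 early minus late 0.050, Pdyn between Vehicle groups 0.012, and Pdyn, Pnoc, Oprk1 and Oprl1 between SAFit2 groups 0.16, 0.050, -0.11 and 0.071.

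Leaving out each mouse also changed signs, with ranges of -0.14 to 0.027 for Oprk1 early, -0.093 to 0.030 for Oprl1 late, -0.34 to 0.48 for Oprm1 late, -1.06 to 0.16 for Oprd1 late, -0.28 to 0.33 for the Oprd1 mean, -0.00080 to 0.068 for the Oprl1 mean and -0.13 to 0.14 for Pdyn early minus late. Between Vehicle groups they were -0.12 to 0.14 for Pdyn and -0.057 to 0.84 for Oprm1, and between SAFit2 groups -0.14 to 0.12 for Pdyn, -0.25 to 0.037 for Pnoc, -0.11 to 0.017 for Oprl1 and -0.068 to 0.16 for Oprk1. The ratio of Penk to Pdyn ran from -0.13 to 0.077 in early and -0.046 to 0.26 in late mice, and that of Penk to Oprd1 from -0.40 to 0.95 in late mice.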
